A study of Mus musculus with 4 samples.

Results

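The neutrophil granule genes described here are 10 genes picked by symbol out of the 40999 features listed for each library, and all 10 were found. They fall into 4 early genes, Mpo, Elane, Prtn3 and Ctsg, and 6 late genes, Ltf, Ngp, Camp, Lcn2, S100a8 and S100a9. Wild-type C57BL/6J mouse gonads were profiled by stranded total RNA sequencing on 4 embryonic days, E11.5 through E14.5, with 1 library per day and no transgene or treatment in any of them. Each library came from 1 pool of at least 6 male and 6 female gonads taken from several embryos, so the sexes cannot be told apart. The mesonephros was part of the E11.5 pool and was dissected away from E12.5 on, so age and tissue content cannot be told apart in any comparison with E11.5. No difference below has a replicate check, and every 95% interval covers counting error only.

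Neutrophils make their granule proteins in waves as they mature in blood-forming tissue. Promyelocytes fill the primary or azurophil granules with myeloperoxidase and the serine proteases neutrophil elastase, proteinase 3 and cathepsin G. Later precursors shut these genes down and make the proteins of the secondary and tertiary granules, such as lactoferrin and cathelicidin, along with large amounts of the cytosolic calcium-binding pair S100A8 and S100A9. In the embryo the fetal liver is the main site where granulocytes are made, and the gonad receives blood cells through its vessels.

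The late genes were highest at E14.5, and the early genes did not rise with them to a like extent. Between E13.5 and E14.5 the summed raw counts of the 6 late genes went from 224 to 840. Those of the 4 early genes went from 217 to 164. With the TMM scaling described below, the late sum had a log2 fold change of 3.0 (2.78 to 3.22). The early sum was at 0.69 (0.38 to 0.99) on that scale and at -0.39 per total counts. The late share of all granule gene counts was 51.0%, 44.4%, 50.8% and 83.7% from the first day to the last. That share is taken within a library and does not depend on how libraries are scaled.

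Several members lay near each other in the genome. Camp, Ngp and Ltf lay within 1195 kb of chromosome 9 (mm10), with 41 other features between Camp and Ltf. S100a8 and S100a9 were neighbours within 26.7 kb of chromosome 3 and were read from opposite strands. Prtn3 and Elane were neighbours within 8.55 kb of chromosome 10, while Mpo lay on chromosome 11, Ctsg on 14 and Lcn2 on 2. No exon of a member overlapped an exon of another listed feature. In the transcript sequences of GENCODE M21, only Mpo had a stretch of at least 50 bases with at least 90% identity to another gene, a 208-base match to Gm11505.

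Promoter sequences are shown for 3 late and 2 early genes, because the windows of these 3 late genes hold a match to TTGCNNAA that the early windows lack. The windows of Camp and S100a8, also late genes, held no such match. The sequences come from RefSeq (GRCm38.p6), begin 250 bases before the RefSeq start, run in the direction of the gene and stop before the first GENCODE exon base. Capitals mark a match to TTGCNNAA, a core bound by C/EBP factors, or to GAGGAA, a core bound by PU.1, on either strand. These are chr9:111019042-111019270 (plus strand) for Ltf, chr9:110419558-110419746 (plus strand) for Ngp, chr3:90695722-90695971 (minus strand) for S100a9, chr10:79879417-79879613 (plus strand) for Prtn3 and chr14:56102575-56102824 (minus strand) for Ctsg.
Ltf: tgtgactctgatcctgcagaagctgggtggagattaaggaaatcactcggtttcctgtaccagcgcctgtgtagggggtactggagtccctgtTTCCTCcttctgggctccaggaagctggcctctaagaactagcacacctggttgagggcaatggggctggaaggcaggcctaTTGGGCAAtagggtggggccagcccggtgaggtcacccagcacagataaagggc
Ngp: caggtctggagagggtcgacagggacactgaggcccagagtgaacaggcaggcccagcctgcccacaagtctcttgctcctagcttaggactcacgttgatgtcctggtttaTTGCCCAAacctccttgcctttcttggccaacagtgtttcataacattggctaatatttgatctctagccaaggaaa
S100a9: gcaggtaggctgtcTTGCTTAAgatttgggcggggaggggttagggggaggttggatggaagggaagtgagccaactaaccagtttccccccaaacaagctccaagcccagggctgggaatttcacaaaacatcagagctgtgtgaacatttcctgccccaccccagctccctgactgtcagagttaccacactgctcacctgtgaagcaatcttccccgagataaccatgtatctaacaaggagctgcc
Prtn3: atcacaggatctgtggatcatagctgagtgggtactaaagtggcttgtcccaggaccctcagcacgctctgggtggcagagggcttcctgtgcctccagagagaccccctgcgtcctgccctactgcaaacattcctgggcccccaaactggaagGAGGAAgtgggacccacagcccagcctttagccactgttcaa
Ctsg: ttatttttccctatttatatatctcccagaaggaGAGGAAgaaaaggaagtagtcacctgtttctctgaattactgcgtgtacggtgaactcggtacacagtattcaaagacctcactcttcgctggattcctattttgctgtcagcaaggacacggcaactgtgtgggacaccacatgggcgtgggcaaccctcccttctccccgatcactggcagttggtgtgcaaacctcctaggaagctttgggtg

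In the full windows of 250 bases before the RefSeq start, TTGCNNAA was found for 4 of the 6 late genes (Ltf, Ngp, Lcn2 and S100a9). It was found for none of the 4 early genes. GENCODE places the starts of Lcn2 and Prtn3 upstream of their whole windows, so matches there lie within the GENCODE gene. The same letters were present in 9.56% of all 32851 promoter windows of that length. Counted from the start, the match lay at positions -75 to -68 in Ltf, -216 to -209 in Lcn2 and -236 to -229 in S100a9. Ngp had a match at positions -138 to -131 and another at -11 to -4, past its GENCODE start and outside the stretch printed above. GAGGAA was found before all 4 early genes and before 3 of the 6 late genes (Ltf, Lcn2 and S100a8), against 23.3% of all windows. No match to one motif overlapped a match to the other in these windows. The window of Camp held neither. A match is a run of letters, and binding was not measured.

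The libraries held 25593453 to 31752562 counts, and the 10 members together had 794, 232, 441 and 1004 counts in order of age. Nuclear ribosomal RNA took 9.06%, 1.31%, 1.03% and 40.7% of counts in that order, so the libraries with most ribosomal RNA were also those with most granule gene counts. The part of the ribosomal RNA in these levels was not tested beyond the rescaling given beside each result. Fold changes were therefore computed on counts scaled by TMM (trimmed mean of M values), which matches libraries on the bulk of their genes. Dividing by total counts instead moved the median of all tested features at E14.5 by -1.07 on the log2 scale against E13.5, by -1.04 against E12.5 and by -0.88 against E11.5. Lcn2, Ltf and the S100 genes are also known from epithelia. In pooled tissue, fewer cells of a type and less RNA per cell cannot be told apart.

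**Figure D1:**
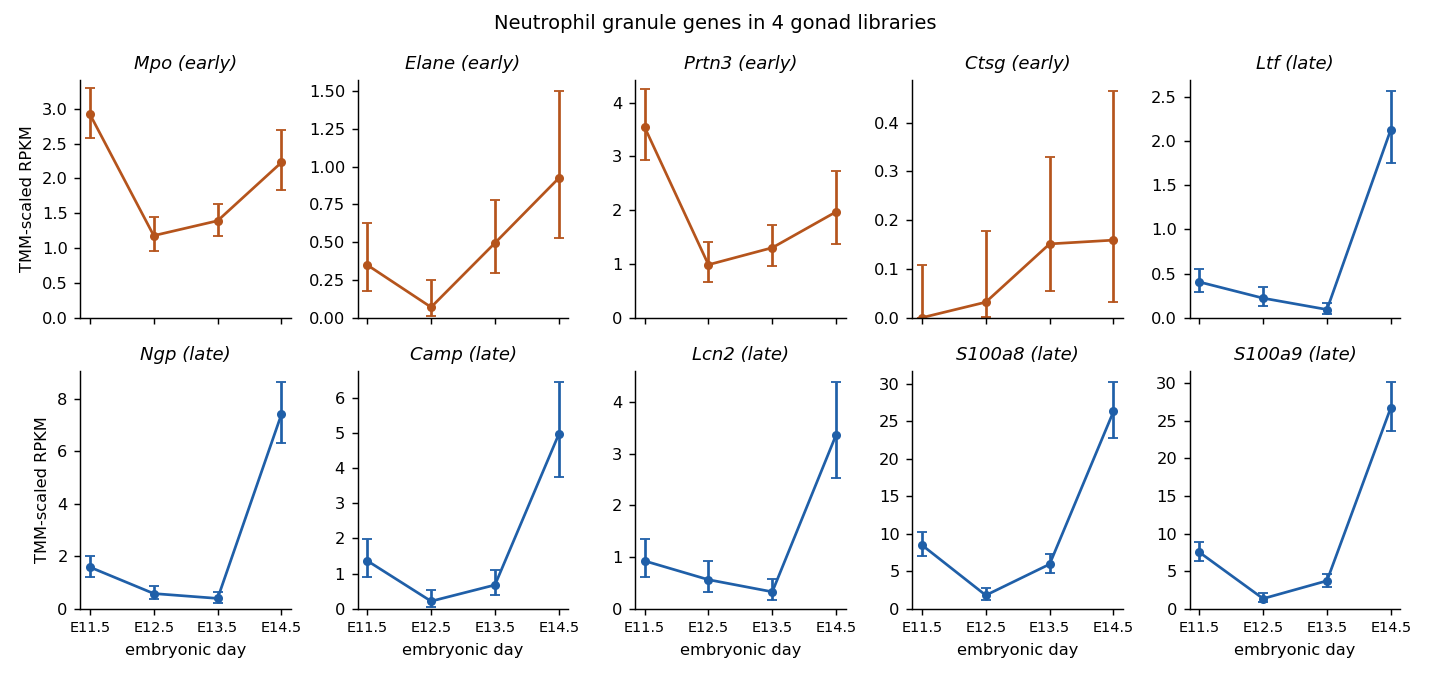
Level of each granule gene in the 4 libraries, as RPKM computed with TMM-scaled library sizes; bars are exact 95% Poisson intervals and each panel has its own axis from 0. All 6 late genes (blue) peaked at E14.5, whereas Mpo and Prtn3 (orange) peaked at E11.5. Of the other early genes, Elane was highest at E14.5, at 0.924 (0.528 to 1.5), and Ctsg had only 3 counts there.

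The late genes are described first. Ltf, which codes for the iron-binding lactoferrin of secondary granules, had 38, 19, 10 and 110 counts from E11.5 to E14.5. Its deposited TPM, a level that allows for exon length and library size, were 0.624, 0.416, 0.190 and 1.43. Ltf was lowest at E13.5, and its E14.5 count was above the 3 others together.

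Ngp, the cathelicidin-related neutrophilic granule protein, had 63, 21, 18 and 162 counts from E11.5 to E14.5, or 2.44, 1.08, 0.806 and 4.97 TPM. Ngp shared with Ltf the low pair at E12.5 and E13.5. Camp, the gene of the antimicrobial cathelicidin, had 28, 4, 16 and 56 counts, or 2.11, 0.40, 1.39 and 3.33 TPM. Camp was at its lowest at E12.5, not at E13.5.

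Lcn2, which codes for the siderophore-binding lipocalin 2, had 27, 15, 11 and 54 counts from E11.5 to E14.5, or 1.43, 1.05, 0.671 and 2.25 TPM. Its order of libraries was that of Ltf and Ngp. S100a8, a subunit of calprotectin, had 114, 22, 92 and 194 counts, or 13.1, 3.37, 12.2 and 17.6 TPM. S100a9, the other calprotectin subunit, had 135, 22, 77 and 264 counts, or 11.6, 2.52, 7.64 and 17.9 TPM. Both S100 genes were low at E12.5 only and had returned toward their E11.5 TPM by E13.5, a day before Ltf, Ngp and Lcn2 were higher.

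The early genes had another course. Mpo, the peroxidase of primary granules, had 260, 96, 143 and 109 counts from E11.5 to E14.5, or 4.51, 2.22, 2.86 and 1.49 TPM. Prtn3, the gene of proteinase 3, had 118, 30, 50 and 36 counts, or 5.47, 1.85, 2.68 and 1.32 TPM. For both genes the E11.5 library stood above the others, and the E14.5 count was below the E13.5 count. As TMM-scaled RPKM the E14.5 level was instead above that of E13.5. Mpo went from 1.39 to 2.23 and Prtn3 from 1.30 to 1.97. Elane, the gene of neutrophil elastase, was sparse at 11, 2, 18 and 16 counts, or 0.539, 0.130, 1.02 and 0.619 TPM. Its TMM-scaled RPKM were 0.349, 0.0693, 0.495 and 0.924, highest at E14.5, where the interval overlapped that of E13.5. Ctsg, the gene of cathepsin G, had 0, 1, 6 and 3 counts. Only at E13.5 was Ctsg above 3 counts, the limit that a count of 0 allows, which corresponds to 0.0945 to 0.117 CPM across the libraries.

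Per length, the calprotectin genes had the highest levels of the members in every library, although at E12.5 the intervals of both overlapped those of Mpo and Prtn3, so the order was not resolved there. At E14.5 the TMM-scaled RPKM, counts per kilobase of exon over the scaled library size, of S100a9 was 26.8 (95% interval 23.6 to 30.2) and that of S100a8 was 26.3 (22.7 to 30.3), so the order of this pair was not resolved. Ngp followed at 7.42 (6.32 to 8.65), Camp at 4.97 (3.75 to 6.45) and Lcn2 at 3.36 (2.53 to 4.39). Mpo at 2.23, Ltf at 2.13 and Prtn3 at 1.97 had intervals that overlapped one another. Elane was at 0.924 (0.528 to 1.5) and Ctsg at 0.159 (0.0328 to 0.465), and these last intervals did not overlap. At E11.5 the order differed in its middle, with Prtn3 at 3.54 (2.93 to 4.24) and Mpo at 2.92 (2.58 to 3.30) above Ngp at 1.58 (1.22 to 2.03). Ltf was at 0.405 (0.286 to 0.555) in that library, below Mpo, whereas the pair could not be ordered at E14.5.

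E12.5 versus E11.5 sets gonads freed of the mesonephros against whole genital ridges. Granule genes of both kinds were lower at E12.5. A feature was called changed when its log2 fold change was at least 1 in size and its interval left out 0, and 8 of the 10 members had enough counts to be tested. Of these, 6 were lower and none was higher, where 8.29% of all 19215 tested features were lower and 7.92% were higher. The lower genes were S100a9 (log2 fold change -2.48, interval -3.21 to -1.83), S100a8 (-2.24), Camp (-2.64), Ngp (-1.45), Prtn3 (-1.84) and Mpo (-1.31). Ltf at -0.87 (-1.75 to -0.042) and Lcn2 at -0.72 (-1.74 to 0.24) were not called. Elane, with 11 and 2 counts, and Ctsg, with 0 and 1, did not have enough counts.

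Many other leukocyte genes were lower as well, but not those of every list. The summed late counts had a log2 fold change of -1.85 (-2.17 to -1.53) and the summed early counts one of -1.46 (-1.76 to -1.17). Of 7 pan-leukocyte markers, 6 were lower with a median of -1.53, and of 10 tested macrophage markers 8 were lower with a median of -1.47. Mesonephric duct and tubule markers were lower in 3 of 6 with a median of -1.82, while gonad markers were higher in 6 of 8 with a median of 1.47. Of 4 tested stefin cluster genes 3 were lower with a median of -2.06. Of 4 tested mast cell, basophil and eosinophil markers, in contrast, 3 were higher and 1 was lower with a median of 1.05. Other late granule genes were mixed, with 3 higher and 4 lower of 10 tested and a median of -0.069, and of 3 tested other primary granule genes 1 was higher and 1 lower. Of 6 erythroid markers 1 was lower, and none of 5 megakaryocyte and platelet markers was called. The median of all tested features was -0.00409. When the libraries were scaled to equal pan-leukocyte marker counts, an alternative chosen after seeing the data, the late sum was at -0.44 (-0.77 to -0.13) and the early sum at -0.060 (-0.36 to 0.23). Dissection differed between these libraries, and its part in the fall was not tested.

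E13.5 versus E12.5 compares 2 pools dissected alike, with 1.03% and 1.31% ribosomal RNA. The members moved apart from each other. Of 9 tested members, 4 were higher (2.53% of 19152 tested features were) and 1 was lower (1.37% were). S100a8 had a log2 fold change of 1.72 (1.04 to 2.47), S100a9 one of 1.47 (0.77 to 2.22) and Camp one of 1.64 (0.030 to 3.70). Elane went from 2 to 18 counts, a ratio of 6.80 with a counting interval of 1.71 to 63.3. Ltf was lower at -1.25 (-2.53 to -0.087), and Ngp at -0.56, Lcn2 at -0.78, Mpo at 0.24 and Prtn3 at 0.40 were not called. The ratio of S100a8 and S100a9 counts to those of Ltf, Ngp, Camp and Lcn2 changed by a factor of 4.10 (2.44 to 6.97), which no scaling can alter.

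E14.5 versus E13.5 also compares gonads without mesonephros, but ribosomal RNA was 40.7% against 1.03% of counts. All 6 late genes were higher and none of the 3 tested early genes was called in either direction. Among all 18992 tested features 5.89% were higher and 1.44% were lower. Ltf had the largest log2 fold change of the members, 4.53 (3.62 to 5.65), followed by Ngp at 4.25 (3.55 to 5.05), Lcn2 at 3.37 (2.43 to 4.47), Camp at 2.88 (2.07 to 3.8), S100a9 at 2.86 (2.50 to 3.25) and S100a8 at 2.16 (1.80 to 2.54). The interval of Ltf did not overlap those of S100a8 and S100a9, and its interval did overlap those of Ngp, Lcn2 and Camp. Mpo at 0.70 (0.33 to 1.07), Elane at 0.91 (-0.15 to 1.97) and Prtn3 at 0.61 (-0.044 to 1.26) stayed under the 2-fold line. Ctsg, with 6 and 3 counts, was not tested.

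Scaling set the direction of the early genes but not that of the late genes. The summed late counts had a log2 fold change of 3.0 (2.78 to 3.22) with TMM, 1.92 (1.70 to 2.14) per total counts and 1.36 (1.15 to 1.58) as a ratio of deposited TPM. The summed early counts were at 0.69 (0.38 to 0.99) with TMM, -0.39 (-0.70 to -0.094) per total counts and -0.95 (-1.25 to -0.65) as a ratio of TPM. All 6 late genes were called higher per total counts too. By the ratio of deposited TPM, S100a8 was at 0.53 and was not called, and Prtn3 was called lower at -1.02.

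**Figure D2:**
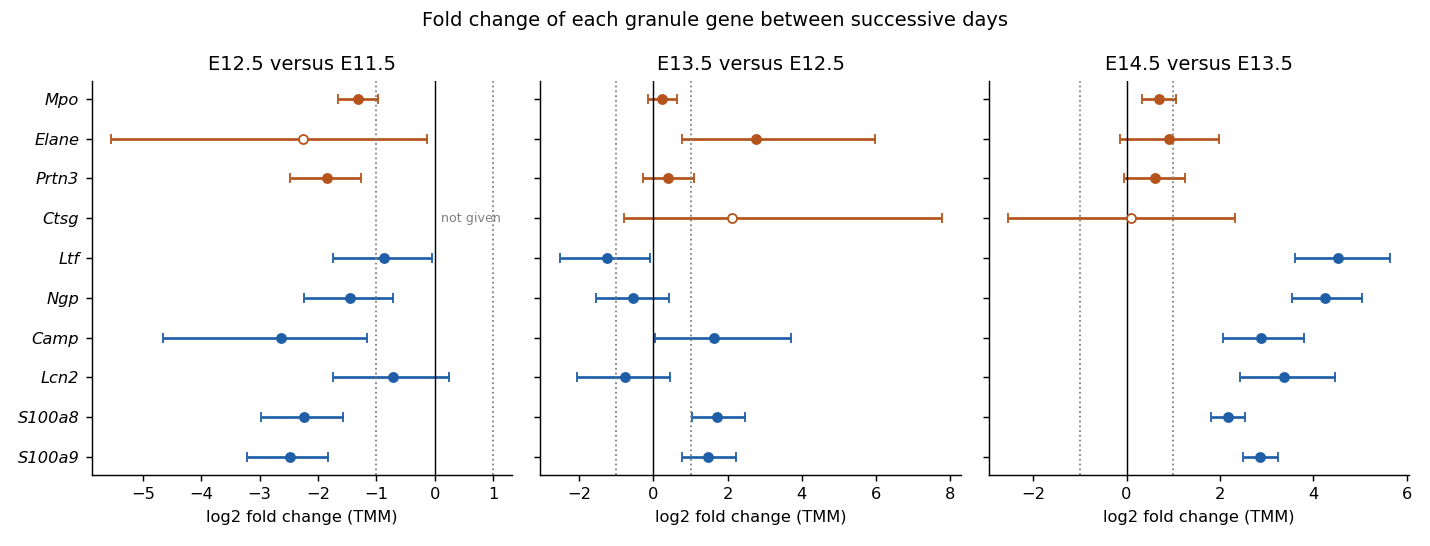
Log2 fold change of each granule gene between successive days (TMM scaling), with exact 95% counting intervals; open points were not tested, dotted lines mark a 2-fold change, early genes are orange and late genes blue. At E14.5 versus E13.5 every late gene lies beyond the 2-fold line and no early gene's point does.

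E14.5 was also set against the 2 earlier days, and the 3 comparisons share the E14.5 library, so they are not independent of each other. Against E12.5, 8 of 9 tested members were higher and none was lower (7.96% and 2.38% of tested features were). Log2 fold changes ran from 2.58 for Lcn2 to 4.50 for Camp among the late genes. Of the early genes, Elane was higher at 3.65 (1.66 to 6.91), from 2 to 16 counts, and Prtn3 passed narrowly at 1.01 (0.27 to 1.76). Mpo was at 0.93 (0.52 to 1.34) and was not called. Per total counts, Prtn3 was at -0.038 and the early sum at 0.046 (-0.30 to 0.39). Against E11.5, 7 of 9 tested members were higher and none was lower (11.4% and 7.03% of tested features were). The higher ones were the 6 late genes, from 1.64 for S100a8 to 2.40 for Ltf, and Elane at 1.40 (0.21 to 2.66). Mpo at -0.38 and Prtn3 at -0.84 were not called. Per total counts, 2 members were higher, Ltf at 1.52 and Ngp at 1.35, and 2 were lower, Mpo at -1.27 and Prtn3 at -1.72. Those libraries held 40.7% and 9.06% ribosomal RNA.

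The balance between late and early genes can be read within each library. The intervals of the late share were 47.5% to 54.5% at E11.5, 37.9% to 51.0% at E12.5, 46.0% to 55.6% a day later and 81.2% to 85.9% in the last library. The first 3 intervals overlapped one another and the fourth stood clear of them. The ratio of late to early counts changed by a factor of 0.767 (0.565 to 1.04) from E11.5 to E12.5, 1.29 (0.928 to 1.80) from E12.5 to E13.5 and 4.96 (3.83 to 6.43) from E13.5 to E14.5. In summed TPM, which allow for length, late genes were 2.98, 2.08, 3.34 and 13.4 times the early genes from E11.5 to E14.5.

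The change in balance did not rest on the abundant S100 genes. With S100a8, S100a9 and Lcn2 set aside, Ltf, Ngp and Camp made up 24.9%, 25.4%, 16.9% and 66.7% of the counts of the remaining 7 genes. Their ratio to the early genes changed by a factor of 9.83 (6.70 to 14.7) from E13.5 to E14.5. Within the late group, S100a8 and S100a9 took 61.5%, 42.7%, 75.4% and 54.5% of counts, so the share of the calprotectin pair fell, rose and fell again. The ratio of the pair to the other 4 late genes changed by a factor of 0.468 (0.294 to 0.741) from E11.5 to E12.5 and by 0.391 (0.274 to 0.55) from E13.5 to E14.5, with the rise by 4.10 between them. S100a8 held between 42.4% and 54.4% of the counts of its pair in all 4 libraries. Mpo held between 65.9% and 74.4% of the early counts.

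**Figure D3:**
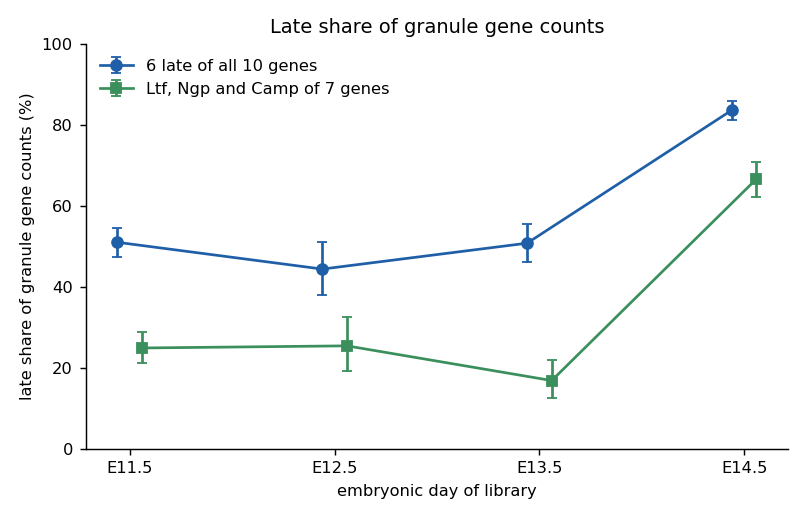
Late share of granule gene counts in each library, in percent, for the 6 late of all 10 genes (circles) and for Ltf, Ngp and Camp of the 7 genes left without S100a8, S100a9 and Lcn2 (squares); bars are exact 95% binomial intervals. Both shares are highest at E14.5, at 83.7% and 66.7%.

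The granule genes were set beside markers of other blood cells in the same libraries. Per 100 counts of the 7 pan-leukocyte markers, which include Ptprc, the gene of CD45, the early genes had 30.6, 29.3, 35.2 and 41.7 counts from E11.5 to E14.5. The late genes had 31.8, 23.4, 36.4 and 214 on the same scale. From E13.5 to E14.5 the late to pan-leukocyte ratio changed by a factor of 5.87 (4.82 to 7.17) and the early to pan-leukocyte ratio by 1.18 (0.925 to 1.51). Against 11 macrophage markers the late genes had 15.2, 10.03, 17.3 and 102 counts per 100, and the early genes 14.6, 12.6, 16.8 and 19.8. Over the longer steps to E14.5 the early ratios were higher too, with intervals above 1. The early to pan-leukocyte ratio changed by 1.42 (1.08 to 1.88) from E12.5 and by 1.37 (1.09 to 1.70) from E11.5, and the early to macrophage ratio by 1.58 (1.22 to 2.04) and 1.35 (1.10 to 1.66). The late to pan-leukocyte ratio changed by 9.12 (7.10 to 11.8) and 6.71 (5.68 to 7.94) over the same steps.

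The late genes were also set beside the stefin cluster, small cysteine protease inhibitors of neutrophils on chromosome 16. Of 8 symbols listed for the cluster, 5 were found. Cstdc4, Cstdc5 and Cstdc6, which the authors name among the changed stefin genes, were not found under those symbols. The sums and ratios here may therefore leave out part of the cluster. The 5 genes found had 247, 53, 93 and 283 counts from E11.5 to E14.5, and all 5 were higher in the last library than a day before. Their median log2 fold change was 2.99. Stfa2l1 had 14, 5, 5 and 37 counts and a log2 fold change of 3.93 (2.63 to 5.68) in that comparison. Stfa3 was at 2.99 (1.98 to 4.19), and Stfa2 went from 3 to 21 counts. Stefins are related copies, so counts could be split among them, and their sequence identity was not measured here. The late to stefin ratio changed by a factor of 1.23 (0.923 to 1.64) from E13.5 to E14.5, whereas the early to stefin ratio changed by 0.249 (0.180 to 0.342).

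**Figure D4:**
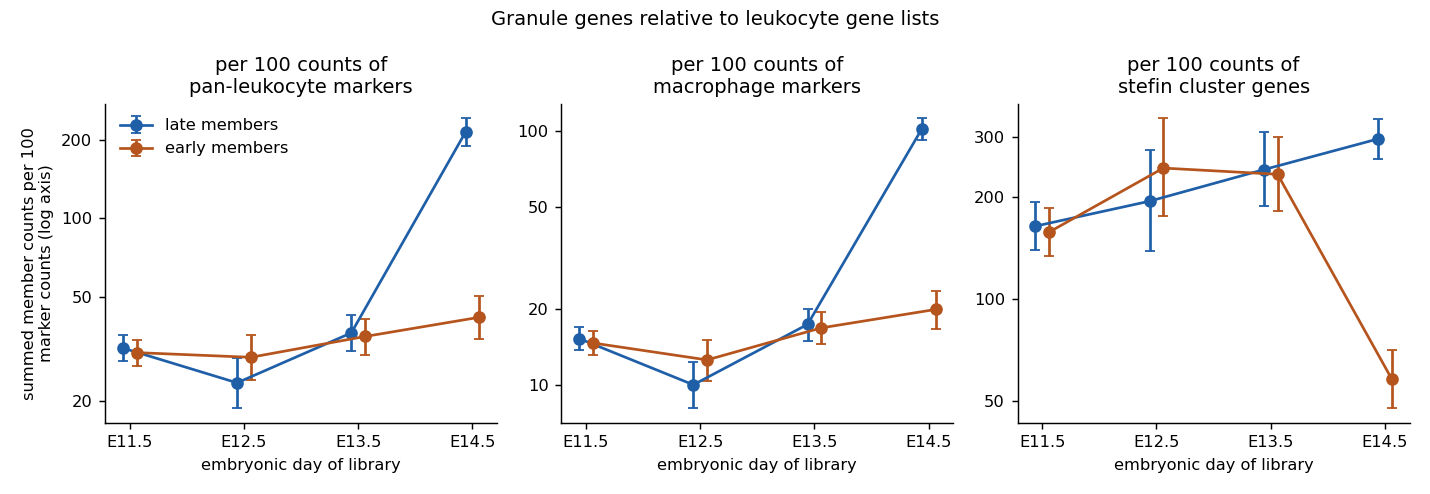
Summed counts of late (blue) and early (orange) granule genes per 100 counts of pan-leukocyte markers, macrophage markers and stefin cluster genes in each library, on log axes; bars are 95% intervals for counting error. Late genes rise to 214 per 100 pan-leukocyte counts at E14.5, and early genes drop to 58.0 per 100 stefin counts.

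Other genes of the granule pathway were read from lists, and the values that follow compare E14.5 with E13.5 on the TMM scale. Per total counts each moves by about the -1.07 given above, and the medians of the 16 lists were then negative except those of the stefin cluster genes at 1.92 and the monocyte markers at 0.072. Of 14 other late granule genes, 10 were tested, 5 were higher and none was lower, and the median over the tested genes was 0.76 on the log2 scale. Hp, the gene of haptoglobin, was at 2.07 (0.93 to 3.35), Olfm4, a secondary granule glycoprotein, at 1.82 (1.26 to 2.39), and Cybb, the catalytic subunit of the phagocyte NADPH oxidase, at 1.29 (0.80 to 1.79). Mmp8 and Cd177 were the other 2 higher genes. The group was therefore mixed, and its other 5 tested genes lay between -0.37 and 0.22. Of 7 other primary granule genes, 3 were tested and none was called, with Ctsc, the protease that activates the granule serine proteases, at 0.32 (0.088 to 0.54), the inhibitor Serpinb1a at 0.26 and the proteoglycan Srgn at -0.054.

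No tested regulator or signal of granulocyte formation was called changed. None of 9 transcription factors was called, and their median was 0.14. Cebpa, needed for granulocyte progenitors, was at 0.69 (0.51 to 0.88), Cebpd at -0.69 (-0.89 to -0.50) and Runx1 at -0.48 (-0.59 to -0.36). Cebpe, the C/EBP factor of secondary granule genes, had 15, 13, 13 and 13 counts in the 4 libraries and a log2 fold change of 1.08 (-0.14 to 2.32), with an interval that held 0. Several of these factors, such as Runx1, are also expressed outside blood cells.

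Among 9 signals, 5 were tested and none was called. Cxcl12, which holds granulocytes in blood-forming tissue, was at 0.74 (0.69 to 0.79), Csf1 at 0.45 and Kitl at -0.26. Csf3, the gene of G-CSF, had 8, 7, 9 and 2 counts from E11.5 to E14.5. Of 9 receptors and inhibitors of granule proteins, 6 were tested and none was called, with Ager and Tlr4, receptors of calprotectin, at 0.57 (-0.27 to 1.38) and 0.41 (-0.20 to 1.0) and the endocytic receptor Lrp1 at 0.36 (0.33 to 0.39). The medians of the other late and other primary granule genes, the transcription factors and the receptors and inhibitors turned negative as ratios of deposited TPM.

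Several defining surface markers of mature neutrophils were nearly absent. Ly6g, the classical mouse neutrophil antigen, had 0, 1, 1 and 0 counts from E11.5 to E14.5. Cxcr2, the chemokine receptor of mature neutrophils, had 3, 2, 5 and 6 counts, and Fpr1 had 0 in all 4 libraries. Csf3r, the G-CSF receptor, was better covered at 56, 30, 27 and 18 counts and had a log2 fold change of 0.50 (-0.44 to 1.42) at E14.5 versus E13.5. Of 10 surface genes, 4 were tested and 2 were higher in that comparison, Trem1 and Itgam, the latter at 1.06 (0.47 to 1.65). Most of the surface list was thus too sparse to compare.

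The median of each other cell type list moved less than that of the late genes from E13.5 to E14.5. None of 7 pan-leukocyte markers was called, with a median of 0.49 and Ptprc at 0.49 (-0.036 to 1.0), and 1 of 10 tested macrophage markers was higher with a median of 0.51. Of 3 tested monocyte markers 2 were higher, Ccr2 at 1.42 (0.70 to 2.15) and F13a1 at 1.15 (0.72 to 1.58). Of 7 tested mast cell, basophil and eosinophil markers 3 were higher, with a median of 0.85, Prg2 at 1.73 (1.08 to 2.40) and Cma1 at 1.27 (0.39 to 2.17). Erythroid, megakaryocyte, endothelial and gonad markers had no called gene, with medians of 0.26, -0.094, -0.17 and -0.14. Of 6 mesonephric markers 1 was higher, Cdh16 at 2.29 (1.65 to 2.98), with 700, 91, 29 and 67 counts from E11.5 to E14.5, and its part in the late gene levels was not tested.

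**Figure D5:**
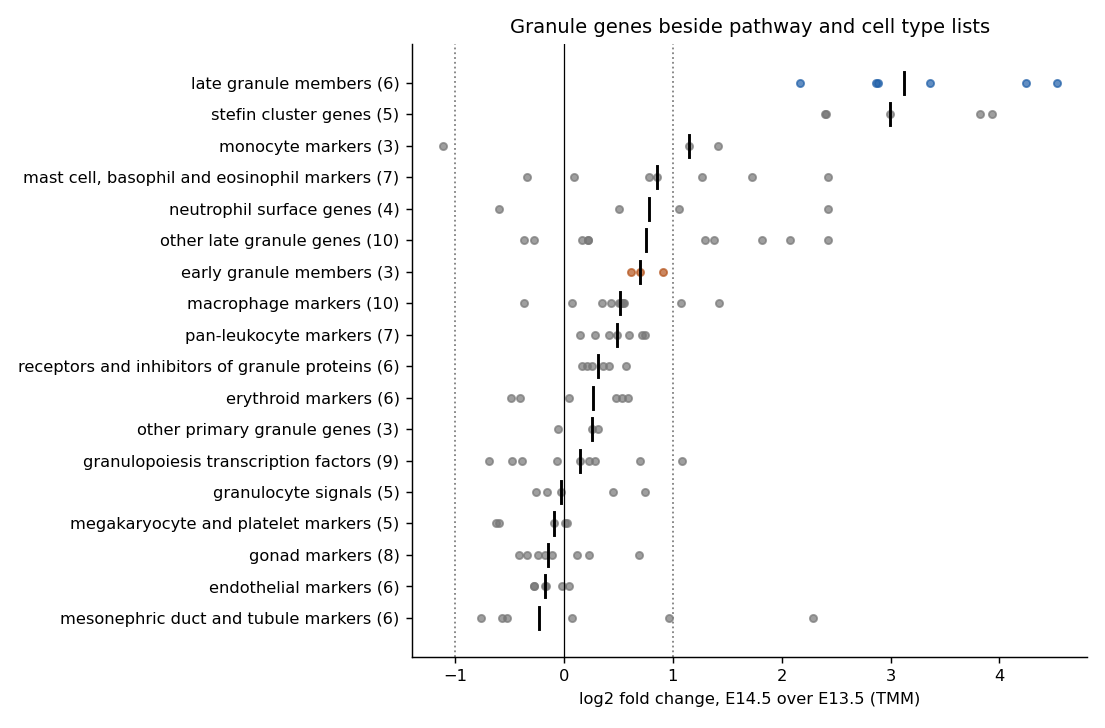
Log2 fold change at E14.5 versus E13.5 (TMM scaling) of each tested gene in the granule gene groups and in 16 pathway and cell type lists, with the number tested in brackets; points are genes, black bars are list medians and dotted lines mark a 2-fold change. Late members (blue, median 3.12) and stefin cluster genes (median 2.99) lie furthest to the right.

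Features with the course most like each group were sought by the distance between their 3 daily log2 fold changes and those of the summed members, among 15778 features with at least 50 counts in their highest library. Nearest to the late sum was Adcy8 at a distance of 0.395, with 101, 24, 44 and 135 counts from E11.5 to E14.5. It was followed by LOC102636311, Wnk2, Efcab3, Stfa1, Vsig8, Slc16a11 and Gm5483, the last at 0.760. Wnk2, Vsig8 and Slc16a11 were far more abundant than the members, at 3144, 3524 and 3184 counts at E14.5. Efcab3, Stfa1 and Gm5483 had 71, 82 and 55 there. This course is high in the libraries with most ribosomal RNA, whose part in it was not tested. Stfa1 belongs to the stefin cluster list. Among the 6 late members S100a9 was closest to the late sum, to which it contributes most, at 0.943, and Ltf was farthest at 2.73.

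Nearest to the early sum was Myo1g, a myosin of blood cells, at 0.104 with 51, 16, 26 and 19 counts. It was followed by Elovl2, Sash3, Cacna1a, Susd4, Adamts6, Gpr137c and LOC102632008, the last at 0.221. Sash3 is an adaptor of lymphoid cells, and Elovl2 an enzyme of fatty acid elongation. More features lay near the early course than near the late one, as the eighth nearest distances of 0.221 and 0.760 show.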

How the data were processed

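Pooled gonad RNA was depleted of ribosomal RNA with probes and RNase H, and stranded libraries with molecular identifiers were made and sequenced. The authors used the SeqSense toolkit with cutadapt, STAR, UMI-tools and featureCounts on mm10 (also named in the submitters' processing notes). Tool versions and the annotation release are not given in the sources used here. The deposited tables give, per feature, counts of deduplicated reads as whole numbers, and the TPM the authors computed from those counts and exon lengths over all features, ribosomal RNA included. The deposited RPKM column was not used.

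The members and lists were chosen with earlier results of these data known. Counts were scaled by TMM (edgeR 4.0.16 in R 4.3.3) within each pair of libraries after filterByExpr, with a prior count of 0.125. Intervals are exact Clopper-Pearson or Poisson intervals at 95% (scipy 1.17.1, Python 3.11.15). With 1 library per day the spread between samples cannot be estimated, so no p-value is given. A call needed a 2-fold change and an interval without 0. The calls were tested on simulated data that held counting error only. That simulation could not show how the calls fare with spread between samples. Alternatives were total counts, DESeq2 1.42.0 size factors, TMM over 4 libraries or without ribosomal RNA and top features, ratios of TPM, other filters, thresholds and prior counts, and edgeR's exact test with a preset biological coefficient of variation (BCV).

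Named genes were all 10 members, up to 3 genes per list with the largest change at E14.5 versus E13.5 and at least 20 counts in the higher library, and the 8 features nearest to each summed group. Genes outside this rule (Mmp8, Cd177, Trem1, Cebpe, Csf3, Ly6g, Cxcr2 and Fpr1) were named after their values were seen, as were the ratios to marker lists and within the late group.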

Additional observations from a re-analysis of the deposited data

How the results depend on the processing

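No paired analysis was possible because each day has 1 library. Among alternatives that did not move a summed fold change across the threshold, 4 changed its sign, all for the early sum. At E14.5 versus E13.5 the early sum was -0.39 per total counts and -0.95 by TPM. At E14.5 versus E11.5 it was 0.45 with equal pan-leukocyte counts and 0.51 as the median of members. That median includes Ctsg, which had 0 and 3 counts and was not tested. Over the tested early members the median was -0.38, with the sign of the sum. At E14.5 versus E13.5 the number of members past 2-fold was 6 under every alternative but edgeR's exact test with a preset BCV of 0.4, which left 2, although with ratios of TPM the 6 were 5 higher and 1 lower. With that BCV, 0 members passed at E12.5 versus E11.5, 0 at E13.5 versus E12.5, 4 at E14.5 versus E12.5 and 0 at E14.5 versus E11.5. A log2 threshold of 2 left 3 members at E12.5 versus E11.5, 1 a day later and 2 at E14.5 versus E11.5. At E13.5 versus E12.5, 3 passed with 10 counts in both libraries and 2 with a BCV of 0.1. At E14.5 versus E11.5, 4 passed per total counts or by TPM. Scaling to equal pan-leukocyte counts, chosen after seeing the data, left 1 member at E12.5 versus E11.5 and put the late sum at -0.44 and the early sum at -0.060 there, and the early sum at 0.51 at E14.5 versus E12.5. The early sum at E14.5 versus E12.5 was 0.046 per total counts and reversed to -0.41 by TPM. At E14.5 versus E11.5 it was -1.26 per total counts and -1.58 by TPM, and the late sum was 0.71 by TPM. The median over early members at E13.5 versus E12.5, Ctsg included, was 1.26.

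The late share from E11.5 to E14.5 was 67.7%, 71.1%, 66.5% and 91.3% without S100a9 and Mpo, 74.9%, 67.5%, 76.9% and 93.1% of summed TPM, and 24.9%, 25.4%, 16.9% and 66.7% without S100a8, S100a9 and Lcn2. It was highest at E14.5 in each. Without S100a8 and Prtn3 the late to early TPM ratio was 3.61 at E11.5 and 2.55 at E13.5. By ratio of TPM, medians at E14.5 versus E13.5 reversed to -1.38 for other primary granule genes, -1.49 for transcription factors and -1.33 for receptors and inhibitors. They reversed to -1.12 for macrophage, -0.48 for monocyte, -1.15 for pan-leukocyte and -1.37 for erythroid markers. Medians also turned negative for other late granule genes (-0.88), neutrophil surface genes (-0.85) and mast cell, basophil and eosinophil markers (-0.78). The stefin cluster median stayed positive at 1.37. Prtn3 reversed to -1.02 there, and at E14.5 versus E12.5 to -0.038 per total counts and -0.49 by TPM. Total counts and TPM hold the ribosomal RNA in their denominators. Depth limited Ctsg and Elane most.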
